A study of Danio rerio with 1536 samples.

Results

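The genes her4.1, her4.2, her4.3, her4.4, her4.5, her15.1 and her15.2 are 7 of the 32519 zebrafish genes counted in single sorted spinal cord cells, and they were chosen because their reads had been seen to gather in a minority of those cells. All 7 were found by symbol and identifier in both deposited tables of counts. GFP+ cells were sorted one per well from the spinal cords of 7-week-old zebrafish of either sex. The isl1a:GFP line, in which a GFP transgene marks motoneurons (MNs) together with other cells, filled plates 1 and 2, and the chx10:GFP line, in which GFP marks V2a interneurons (V2a INs), filled a further pair of plates. The labels name no mutation or treatment in either line. Each plate of 384 wells held cells of 1 pool of 6 to 10 cords that had been dissociated with papain, so that the plate is the replicate and n = 2 plates per line. Cells came from pools and GFP can outlast the gene that drove it, so a well in a GFP+ sort need not hold the cell type after which its line is named.

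Notch is a receptor that is cleaved when it binds Delta or Jagged ligands on a neighbouring cell, and its freed intracellular part joins the DNA-binding protein RBPJ in the nucleus to switch on target genes. The her genes are the zebrafish relatives of the mammalian Hes genes and encode basic helix-loop-helix repressors of transcription. Genes of the her4 group are related to mammalian Hes5, are widely used as a readout of Notch signalling in the zebrafish nervous system, and mark radial glia, the neural stem and progenitor cells of the fish brain and cord. During development, Delta in a nascent neuron activates Notch in the cells around it, where her genes hold down the proneural genes. The genes her15.1 and her15.2 belong to the same Hes5-related group.

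The 7 genes carry the identifiers ENSDARG00000056732 (her4.1), ENSDARG00000094426 (her4.2), ENSDARG00000070770 (her4.3), ENSDARG00000009822 (her4.4), ENSDARG00000056729 (her4.5), ENSDARG00000054562 (her15.1) and ENSDARG00000054560 (her15.2). The her4 genes are close copies of one another, as are the her15 pair, but their sequences were not compared here. The tables were made from uniquely mapped reads. Reads that match several copies would have been lost, and how the remaining reads fall on each copy is therefore uncertain. For this reason the sums over her4.1 to her4.5, over the her15 pair, and over all 7 genes are given beside the single copies. Levels are in CPM, the counts of a gene scaled to a common total of gene counts in a well or plate sum. Gene lengths were not used, so that orders and shares between genes below are of reads and need not be those of transcripts.

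Of 1536 wells, 1247 passed the limits of 2000 to 9000 detected genes and at most 30% spike-in reads, with 259 and 363 wells on isl1a:GFP plates 1 and 2 and 300 and 325 wells on chx10:GFP plates 1 and 2. Passing wells held between 10850 and 1069005 gene counts, with plate medians between 324159 and 436783. Plate 2 of isl1a:GFP stood apart in its spike-in reads, with a median of 0.0683% in wells with under 100 CPM of these 7 genes, against 1.47% on isl1a:GFP plate 1 and 1.55% and 1.84% on the chx10:GFP plates. The counts of isl1a:GFP plate 2 were also deposited on their own, while those of the other plates were deposited together. The part of this in its levels was not tested. Plate 2 of isl1a:GFP held most of the reads described here, and levels and shares of the 7 genes are therefore given by plate. Several counts by kind of well are pooled over plates, and many of them draw mostly on this plate.

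The reads of the her genes lay in few wells. Over the 7 genes there were 85673 reads, of which 4396 and 71750 fell on isl1a:GFP plates 1 and 2, and 4939 and 4588 on chx10:GFP plates 1 and 2. As a level of the plate sums this was 41.9 and 443 CPM in isl1a:GFP cells, against 51.4 and 38.5 CPM in chx10:GFP cells. The single high plate set the isl1a:GFP line apart, and the other isl1a:GFP plate lay between the chx10:GFP plates. The 10 wells richest in these reads held 86.5% and 55.3% of them in isl1a:GFP and 98.5% and 97.2% in chx10:GFP, and a single well held 50.7% on chx10:GFP plate 1.

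At least 1 read of the 7 genes was found in 46 of 259 (17.8%) and 143 of 363 (39.4%) isl1a:GFP wells and in 29 of 300 (9.67%) and 44 of 325 (13.5%) chx10:GFP wells. With every well thinned to 240501 counts, which left out 125 shallower wells, the shares were 18.1% and 30.9% in isl1a:GFP wells and 8.85% and 10.5% in chx10:GFP wells. Most of these wells held only a few reads. Wells with at least 100 CPM summed over the 7 genes, called her-high below, held 98.3% of the reads. There were 14 of 259 such wells (5.41%, exact 95% Clopper-Pearson interval 2.99 to 8.90) and 48 of 363 (13.2%, 9.91 to 17.1) on the isl1a:GFP plates, and 6 of 300 (2.00%, 0.737 to 4.302) and 10 of 325 (3.08%, 1.49 to 5.59) on the chx10:GFP plates. The intervals of the 2 isl1a:GFP plates did not overlap, while those of isl1a:GFP plate 1 and both chx10:GFP plates did. With 2 plates per line, and the genes chosen for this pattern, no test was made between the lines. Smart-seq2 reads carry no molecular identifiers. These intervals treat the wells of a pool as independent and cover the sampling of wells only, so their overlap is not a test between plates.

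The summed level of the her-high wells lay between 105 and 15768 CPM, with a median of 759 CPM. On isl1a:GFP plate 1 the median was 311 CPM and the highest well had 2926 CPM, and on isl1a:GFP plate 2 the median was 1596 CPM and the highest well 15768 CPM. The medians were 1864 and 595 CPM on the chx10:GFP plates, with highest wells at 7474 and 6390 CPM. The limit did not fall in a gap, since the 3 wells just above it had 105, 108 and 108 CPM and the 3 just below it 93.3, 96.0 and 99.6 CPM. Her-high wells were spread over 8 and 14 of the 16 rows in isl1a:GFP and over 5 and 8 rows in chx10:GFP.

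**Figure D1:**
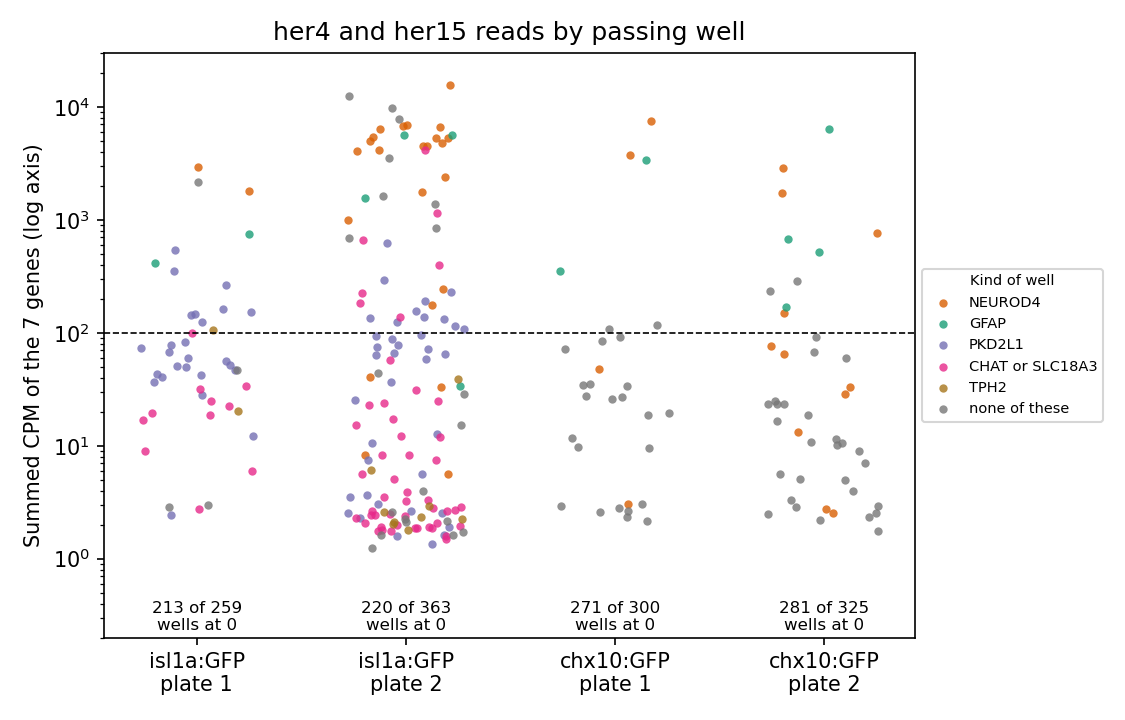
Summed CPM of her4.1 to her4.5, her15.1 and her15.2 (log axis) in each passing well with at least 1 read, by plate, coloured by the kind of well defined in the text, with the 100 CPM limit dashed. The highest wells lie on isl1a:GFP plate 2, up to 15768 CPM, and most wells of every plate are at 0.

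Her-high wells had a median of 416029 gene counts and 3356 detected genes, against 372818 counts and 3915 genes in the other wells. Within plates, the her-high wells had the higher median count only on isl1a:GFP plate 2, with 452627 counts in her-high wells, against 432826 in the other wells. On chx10:GFP plate 1, 2 of the 6 her-high wells held only 59553 and 55725 counts. The GFP reporter, which the sort selected on, had a median of 3072 and 10908 CPM in her-high wells of isl1a:GFP plates 1 and 2, against 2136 and 2015 CPM in the other wells. On the chx10:GFP plates the order was the opposite, with medians of 1950 and 4273 CPM in her-high wells, against 4784 and 5395 CPM in the other wells.

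All 7 copies had reads on all 4 plates. The most abundant row was her15.2 with 35867 reads, present at 100 CPM or more in 54 wells, followed by her15.1 with 19217 reads and 45 such wells. Among the her4 copies, her4.2 had 12003 reads, her4.1 had 7029, her4.5 had 6603, her4.4 had 3122 and her4.3 had 1832. The her15 pair summed to 55084 reads and the 5 her4 copies to 30589.

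By plate, her15.2 had 17.1 and 191 CPM in isl1a:GFP plate sums, against 15.5 and 13.9 CPM in chx10:GFP plate sums. Its partner her15.1 had 10.3 and 99.6 CPM in isl1a:GFP, against 10.0 and 8.68 CPM in chx10:GFP. The levels of her4.2 were 6.36 and 62.6 CPM in isl1a:GFP, against 7.52 and 3.98 CPM in chx10:GFP. These 3 rows shared 1 pattern, with isl1a:GFP plate 2 far above 3 similar plates. The row her4.1 departed from it on the low side, with 0.877 and 33.5 CPM in isl1a:GFP, against 9.71 and 4.798 CPM in chx10:GFP, so that isl1a:GFP plate 1 was lowest. For her4.5 the values were 3.31 and 32.0 CPM in isl1a:GFP, against 5.53 and 4.52 CPM in chx10:GFP. The 2 scarcest copies followed the same order of plates as her15.2, her4.4 with 2.174 and 15.1999 CPM in isl1a:GFP, against 2.06 and 1.96 CPM in chx10:GFP, and her4.3 with 1.76 and 9.06 CPM in isl1a:GFP, against 1.05 and 0.654 CPM in chx10:GFP. The highest single well had 5566 CPM of her15.2, 3116 of her15.1, 2643 of her4.1 and 2467 of her4.2, and all 4 maxima were reached in the same isl1a:GFP well, which also had the highest sum.

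The her15 copies moved together and the her4 copies nearly so. Across the 78 her-high wells, Pearson's r of log2(CPM + 1) between her15.1 and her15.2 was 0.97, and between pairs of her4.2 to her4.5 it was 0.86 to 0.95. The row her4.1 was less tied to the other her4 copies, at 0.45 to 0.57. These values varied by plate. For her4.1, r was 0.77 to 0.85 and 0.43 to 0.56 on the isl1a:GFP plates, and 0.16 to 0.38 and 0.06 to 0.44 on the chx10:GFP plates. Pairs of her4.2 to her4.5 lay higher on each plate, at 0.47 to 0.92 on chx10:GFP plate 2. Between her15 and her4.2 to her4.5 it was 0.40 to 0.48, and between her15 and her4.1 it was 0.22 to 0.25. These are descriptions over wells that share library preparation and pools. The part of read assignment between close copies in these values was not tested. On isl1a:GFP plate 1 alone, the her15 and her4.2 to her4.5 rows of the 14 her-high wells were not positively related, at −0.29 to −0.03. Her-high wells were selected on the sum of these same genes, which bears on r between them. Over all 259 passing wells of that plate, most without a read of these genes, r for the same pairs was 0.26 to 0.37. Over all 1247 passing wells it was 0.70 to 0.73. At 20 CPM or more, 47 of the 78 her-high wells held both her4 and her15, 25 held her15 alone and 6 held her4 alone.

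Which cells the her-high wells were was examined with single marker genes, in a fixed order of priority. The marker rows carry human-style symbols in the name table. Wells were sorted into those with at least 1000 CPM of GFAP, the intermediate filament of radial glia and astrocytes, then at least 1000 CPM of PKD2L1, a channel of neurons that contact the cerebrospinal fluid, then at least 1000 CPM of TPH2, which makes serotonin in neurons. Next came at least 100 CPM of NEUROD4, a proneural transcription factor gene of differentiating neurons, and last came at least 1000 CPM of CHAT or SLC18A3, which make and package acetylcholine in MNs, on the isl1a:GFP plates. These limits were set after the values had been seen, so that the shares are descriptions without a test. The markers overlapped in 2 wells past both GFAP and PKD2L1 and in 7 past NEUROD4 and the cholinergic limit. These 7 are among the 28 isl1a:GFP wells sorted as NEUROD4 and are not counted as cholinergic below. The other pairs of markers that were counted did not overlap.

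Her-high wells were common among GFAP wells and among NEUROD4 wells of isl1a:GFP, and rare among cholinergic and TPH2 wells. Among isl1a:GFP wells, 21 of 28 NEUROD4 wells (75.0%, 55.1 to 89.3) were her-high. The plates gave 2 of 5 and 19 of 23, so that most of these wells came from plate 2. On the chx10:GFP plates, 6 of 101 NEUROD4 wells were her-high (5.94%, 2.21 to 12.5), 2 of 32 and 4 of 69 by plate. Of GFAP wells, 5 of 8 in isl1a:GFP (62.5%, 24.5 to 91.5) and 6 of 7 in chx10:GFP (85.7%, 42.1 to 99.6) were her-high. Every plate contributed, with 2 of 3, 3 of 5, 2 of 2 and 4 of 5 GFAP wells. By contrast, 7 of 253 cholinergic isl1a:GFP wells (2.77%, 1.12 to 5.62) and 1 of 61 TPH2 wells (1.64%, 0.0415 to 8.80) passed the limit. The cholinergic counts were 0 of 95 wells on plate 1 and 7 of 158 on plate 2. Among the wells with none of these markers, 9 of 119 in isl1a:GFP (7.56%, 3.52 to 13.9) and 4 of 517 in chx10:GFP (0.774%, 0.211 to 1.97) were her-high. In isl1a:GFP the plates gave 1 of 54 and 8 of 65.

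**Figure D2:**
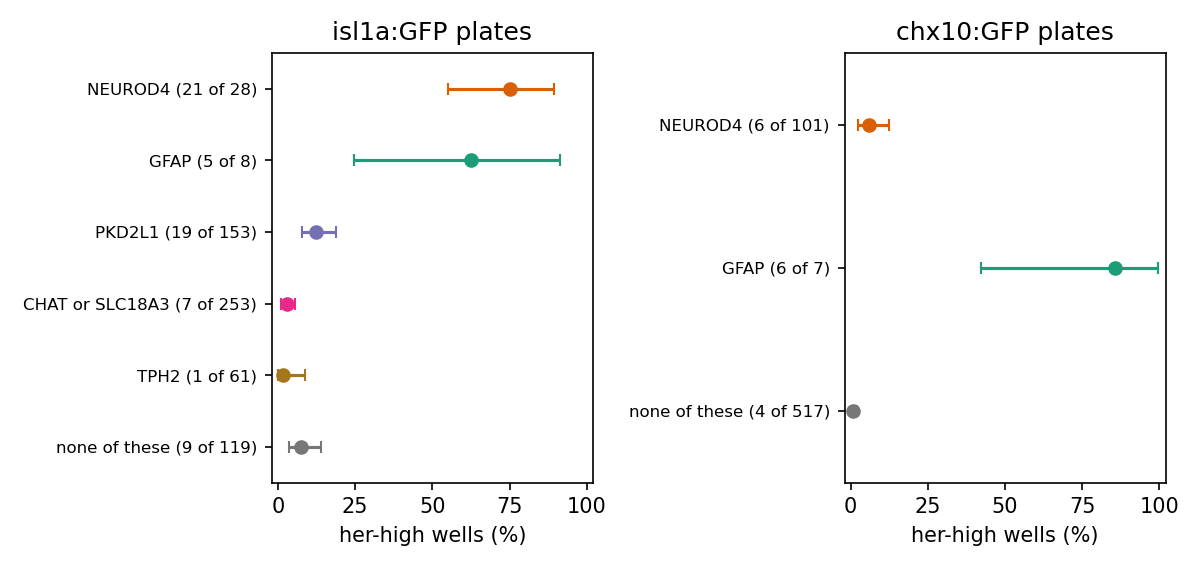
Share of wells with at least 100 CPM of the 7 genes (x axis, percent) by kind of well, on isl1a:GFP plates (left) and chx10:GFP plates (right), with exact 95% Clopper-Pearson intervals over wells. NEUROD4 wells stand at 75.0% in isl1a:GFP and at 5.94% in chx10:GFP, and GFAP wells are high in both lines.

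The kinds differed in which genes they used and how strongly. The 27 NEUROD4 her-high wells had a median of 4149 CPM, and 25 of them held both her4 and her15. The 11 GFAP her-high wells had a median of 756 CPM (171 to 6390), with both groups of genes in 8 wells. This order did not hold on isl1a:GFP plate 2, where the median was 4742 CPM in 19 NEUROD4 wells and 5653 CPM in 3 GFAP wells. The PKD2L1 wells were different. Of their 19 her-high wells, 18 held her15 without her4 at the 20 CPM limit, none held both, and the median was 152 CPM (108 to 618). The 9 isl1a:GFP her-high wells with none of the markers had a median of 2146 CPM and both groups of genes in 8 wells, and the 4 such chx10:GFP wells had a median of 177 CPM and both groups in 2.

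The reads of her15 without her4 in PKD2L1 wells reached beyond the her-high ones. Of the 153 PKD2L1 wells, 44 had at least 20 CPM of her15 (28.8%, 21.7 to 36.6) and 2 had at least 20 CPM of her4 (1.31%, 0.159 to 4.64). Both plates showed this, with her15 in 23 of 71 wells on plate 1 and 21 of 82 on plate 2. TPH2 wells from the same plates had at least 20 CPM of her15 in 2 of 61 (3.28%, 0.400 to 11.3), at a median of 386534 gene counts in TPH2 wells and 428804 in PKD2L1 wells. Thinned to 1 depth, reads of her15 were found in 51 of 148 PKD2L1 wells (34.5%), 6 of 56 TPH2 wells (10.7%) and 19 of 241 cholinergic wells (7.88%). The TPH2 counts were 0 of 27 wells on plate 1 and 6 of 29 (20.7%) on plate 2. On the same plates the shares were 35.7% and 33.3% in PKD2L1 wells and 2.22% and 11.3% in cholinergic wells. Reads of her4 were found in 9 of 148 PKD2L1 wells (6.08%), 4 of 56 TPH2 wells (7.14%) and 25 of 241 cholinergic wells (10.4%). At equal depth PKD2L1 wells thus had the highest of the 3 shares for her15. Their share for her4 was the lowest by small margins over TPH2 wells. It was 2.86% on plate 1, against 3.70% in TPH2 and 8.89% in cholinergic wells, and 8.97% on plate 2, against 10.3% and 11.3%. PKD2L1 itself had a median of 11360 CPM in her-high and 12311 CPM in other wells of this kind.

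**Figure D3:**
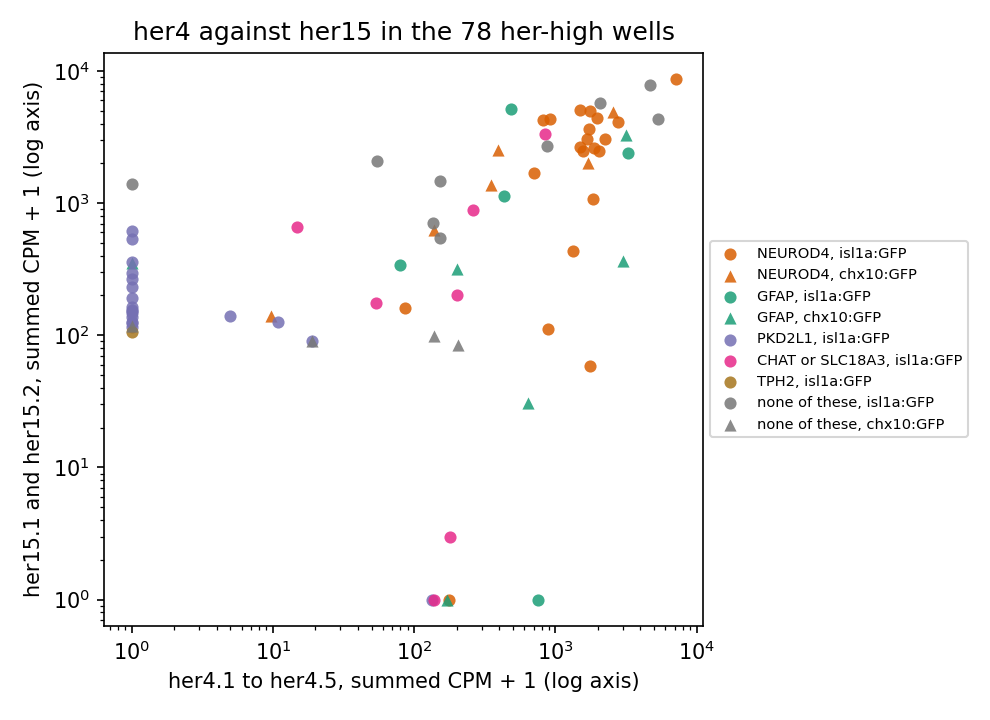
Summed CPM + 1 of her4.1 to her4.5 (x axis) and of her15.1 and her15.2 (y axis), both log axes, in the 78 her-high wells, coloured by kind of well, with circles for isl1a:GFP and triangles for chx10:GFP. PKD2L1 wells line up at the left edge, with her15 and little or no her4, while 25 of 27 NEUROD4 wells hold at least 20 CPM of both.

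Pooled over plates, the choice of her4 copy also differed between kinds. The kinds were spread unequally, since isl1a:GFP plate 2 held 19 of the 27 NEUROD4 and 3 of the 11 GFAP her-high wells. The shares were not split by plate, and the part of the plate in them was not tested. In the 10 GFAP wells with at least 20 CPM of her4, her4.1 was the highest copy in 6 and made up a median of 42.2% of the her4 CPM (0 to 83.0), followed by her4.2 with a median of 20.8%. In the 26 NEUROD4 wells with as much her4, her4.1 was the highest copy in 1 and had a median share of 0.308%, with no read at all in 13 of them. There her4.2 was highest in 21 and had a median share of 43.6%, and her4.5 had a median of 26.7%. The wells with none of the markers resembled the NEUROD4 wells, with her4.2 highest in 8 of 10. A high share of her4.1 was not limited to GFAP wells. In the 6 cholinergic wells with as much her4, her4.1 was highest in 3 and had a median share of 31.25% (0 to 80.6). It held 66.1% in the 1 PKD2L1 well with as much her4. Within the her15 pair, her15.2 exceeded her15.1 in 69 of 72 wells and held a median of 64.4% of the pair's CPM. Its median share was 66.7% in GFAP, 64.4% in NEUROD4, 56.0% in PKD2L1 and 75.3% in cholinergic wells. The copies are close in sequence, and whether the unequal shares follow from how reads were assigned was not tested. No test was made between kinds, because the kinds and copies were chosen after the values had been seen.

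**Figure D4:**
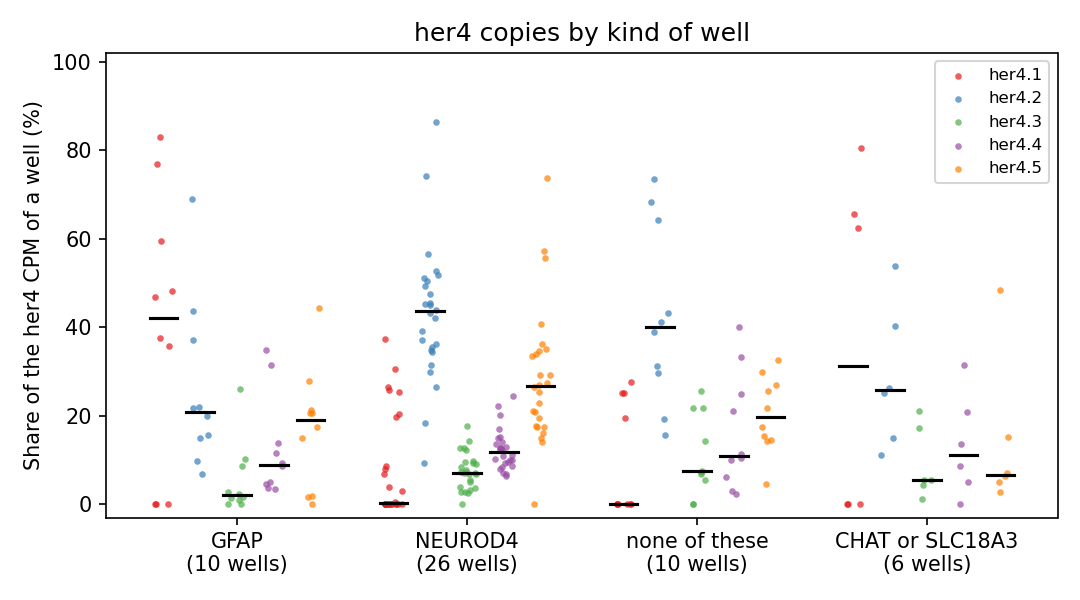
Share of the summed her4 CPM of a well (y axis, percent) taken by each of her4.1 to her4.5, in wells with at least 20 CPM of her4, by kind of well, with a bar at each median. The her4.1 median is 42.2% in GFAP wells and 0.308% in NEUROD4 wells.

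Notch pathway genes divided the same wells. The NEUROD4 her-high wells held receptor, ligand and early neuronal genes together. Of the 21 in isl1a:GFP, 19 had at least 20 CPM of NOTCH1 (ENSDARG00000103554), a Notch receptor, with a median of 381 CPM. In 20 of 21 the ligand gene dlb was read (median 1086 CPM), in 15 the ligand gene dlc (435 CPM) and in 15 the ligand gene DLL1 (ENSDARG00000010791, 421 CPM). The 7 NEUROD4 wells of isl1a:GFP that were not her-high had NOTCH1 in 2 wells, dlb in 4, dlc in 2 and this DLL1 in 2. The transcription factor gene EBF2 was read in 21 of 21 her-high (939 CPM) and 5 of 7 other NEUROD4 wells (580 CPM).

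In chx10:GFP, 5 of the 6 NEUROD4 her-high wells held NOTCH1 at 20 CPM or more (median 456 CPM), against 5 of the 95 other NEUROD4 wells. The same held for dlb, in 4 of 6 her-high wells and 8 of 95 others, and for EBF2, in 6 of 6 and 12 of 95. NOTCH1 and EBF2 are among the genes whose levels most resembled the summed her level across these wells. Their counts here describe that likeness again and are not separate support. NEUROD4 wells of both lines also carried HES6 (ENSDARG00000019335), a her relative that promotes neuronal differentiation in mouse, in 19 of 21 her-high isl1a:GFP wells and 6 of 6 her-high chx10:GFP wells. ISL1, the gene whose reporter marks the isl1a line, was read in 20 of 21 her-high NEUROD4 wells of isl1a:GFP (median 1916 CPM). The panneuronal RNA-binding protein gene ELAVL3 had a median of 11485 CPM in the 21 and 5230 CPM in the 6 wells, against 9255 CPM and 1477 CPM in the other NEUROD4 wells of the same lines. CHAT was at 20 CPM or more in 8 of the 21 her-high wells, against 7 of 7 other NEUROD4 wells of isl1a:GFP. The cell cycle gene PCNA was read at that level in 0 of the 21 and 1 of the 6.

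The GFAP her-high wells carried another set. NOTCH1 was read at 20 CPM or more in 5 of 5 isl1a:GFP and 4 of 6 chx10:GFP wells, but the ligand gene dlb in only 1 of 5 and 0 of 6. NOTCH3, a receptor gene of radial glia, reached that level in 3 of 5 (median 279 CPM) and 5 of 6 (303 CPM), and in 0 of the 27 NEUROD4 her-high wells. HES1, a further repressor gene of the Hes family, was found in 4 of 5 (1331 CPM) and 5 of 6 (1033 CPM), against 5 of 21 and 1 of 6 NEUROD4 her-high wells. ID1, an inhibitor of basic helix-loop-helix factors, was found in 5 of 5 (298 CPM) and 6 of 6 (976 CPM), against 1 of 21 and 1 of 6. NRARP (ENSDARG00000091419), a feedback inhibitor of Notch, was found in 4 of 5 and 5 of 6, against 2 of 21 and 0 of 6. Other glial genes were present throughout, with S100B, the gap junction gene GJA1 and FABP7 (ENSDARG00000007697) at 20 CPM or more in all 11 wells. Some of these wells also held the neuronal gene ELAVL3. It had 2204 and 7947 CPM in the 2 on isl1a:GFP plate 1, where GFP was between 1727 and 7061 CPM. On isl1a:GFP plate 2 it had 2.93 to 212 CPM, on chx10:GFP plate 1 no read, and on chx10:GFP plate 2 0 to 1140 CPM. The GFP reporter was low in the chx10:GFP wells of this kind, with a median of 266 CPM. One isl1a:GFP plate 2 well, with 9693 CPM of the 7 genes and 13991 CPM of FABP7, held no GFAP read and fell among the wells with none of the markers.

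PKD2L1 wells lacked most of these genes. NOTCH1 reached 20 CPM in 1 of 19 her-high and 5 of 134 other PKD2L1 wells, dlb in 0 of 19 and 0 of 134, and HES1 in 5 of 19 and 22 of 134. The ligand gene dll4 was found in 7 of 19 her-high and 68 of 134 other wells. RFX4, a transcription factor gene of glial and ependymal cells, was common in both, with 15 of 19 (median 520 CPM) and 108 of 134 (373 CPM).

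To ask what else the her-high wells expressed with the plate as the replicate, counts of the her-high wells and of the other wells were summed on each plate and compared with edgeR's quasi-likelihood test with Benjamini-Hochberg adjustment and the plate as a block (n = 4 plates). The 7 genes that defined the groups were left out. Of 23391 genes tested, 51 were higher in her-high wells (0.218%) and 121 were lower (0.517%) at an adjusted p under 0.05, 0.735% in either direction. DESeq2 called 330 higher and 1777 lower, which moved the higher share of all calls to 15.7%, against 29.7% with edgeR. The median log2 difference over all genes tested was −1.44 in edgeR and −0.28 in DESeq2, and in edgeR it was −0.44 over the 3974 genes with at least 50 CPM. Each difference is to be read against this median.

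The largest of the higher differences included markers of radial glia and Notch pathway genes. By the size of the difference, the first 10 that were higher on every plate were GJA1 (log2 difference 7.46 ± 0.58 SE), stm (7.33 ± 0.43), FABP7 (ENSDARG00000007697, 6.66 ± 0.48), GFAP (6.27 ± 0.56), S100B (5.81 ± 0.91), CEBPD (5.77 ± 0.86), HES1 (5.75 ± 1.03), NOTCH1 (ENSDARG00000103554, 5.25 ± 0.83), SLC1A2 (ENSDARG00000102453, 4.78 ± 0.44) and SOCS3 (ENSDARG00000025428, 4.77 ± 0.94). SLC1A2 is a glutamate transporter of glia, CEBPD a transcription factor, and SOCS3 an inhibitor of cytokine signalling. The level of GFAP was 1179 and 243 CPM in her-high wells of the isl1a:GFP plates, against 18.97 and 18.1 CPM in the other wells, and 3367 and 4149 CPM in her-high wells of the chx10:GFP plates, against 9.44 and 26.9 CPM. The sum over the her-high wells was the higher one on each of the 4 plates, while single wells overlapped, since some her-high wells held no GFAP read. The sum over the 21 markers of radial glia was 3178, 4585, 18612 and 23585 CPM in her-high wells of isl1a:GFP plates 1 and 2 and chx10:GFP plates 1 and 2, against 643, 1261, 449 and 598 CPM in the other wells.

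These calls depended on a few wells. Without the GFAP wells and with all 4 plates kept, an alternative chosen after seeing the data in which chx10:GFP plate 1 had 4 her-high wells, 16 genes were higher and 155 lower, and 12 of the 51 higher calls were shared. The differences of GJA1 (log2 3.89), stm (0.84), FABP7 (3.06), S100B (2.81), HES1 (1.74), SLC1A2 (0.75) and SOCS3 (2.26) then no longer passed, nor did GFAP (1.37), and CEBPD stood at −0.84 ± 3.41. The filter acts on GFAP itself, so the loss of its call was largely set in advance. The same may hold for genes read in the same wells. NOTCH1 (4.85), dlb (3.904), EBF2 (4.68), NEUROD4 (3.93) and ELAVL3 (1.76) still passed. Without wells under 100000 counts, a further alternative of this kind that also left 4 her-high wells on chx10:GFP plate 1, 16 genes were higher and 16 lower. GFAP, GJA1, FABP7, EBF2 and ELAVL3 then passed, and NOTCH1 (4.98, edgeR adjusted p = 0.0742), dlb (3.53, 0.0742), HES1 (5.71, 0.0878) and NEUROD4 (3.49, 0.0807) did not.

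Among the Notch receptors, 2 of 4 were higher and 0 lower, with a list median of 4.15. NOTCH1 (ENSDARG00000103554) had 104 and 267 CPM in her-high wells of the isl1a:GFP plates, against 6.61 and 5.83 CPM in the other wells. In chx10:GFP it had 416 and 290 CPM in her-high wells, against 3.04 and 8.50 CPM. The sum of this receptor over her-high wells was thus higher on each of the 4 plates (edgeR adjusted p = 0.0005). Many single her-high wells lacked it. With both NOTCH1 rows summed, 44 of the 78 reached 20 CPM. By plate these were 4 of 14 and 29 of 48 in isl1a:GFP, and 6 of 6 and 5 of 10 in chx10:GFP. On isl1a:GFP plate 1 the median of the her-high wells was 0. NOTCH3 had 35.8 and 35.2 CPM in her-high wells of isl1a:GFP, against 2.74 and 0.838 CPM, and 248 and 144 CPM in those of chx10:GFP, against 2.12 and 3.48 CPM (log2 5.19 ± 1.14, edgeR adjusted p = 0.0201). That call was lost without either chx10:GFP plate and the difference stood at −0.26 (SE 4.07) without the GFAP wells, with all plates kept. The second NOTCH1 row (ENSDARG00000052094) and notch2 did not pass, at 3.12 ± 2.48 and −2.66 ± 2.47.

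Of the 9 ligand genes, 1 was higher and 0 lower (list median 2.58), and 3 were called higher by DESeq2. The called gene was dlb, with 144 and 669 CPM in her-high wells of isl1a:GFP, against 22.1 and 61.2 CPM in the other wells, and 749 and 265 CPM in her-high wells of chx10:GFP, against 13.03 and 27.4 CPM. Its log2 difference was 3.60 ± 0.63 (edgeR adjusted p = 0.002), and it lay above the other wells on all plates. The ligand genes DLL1 (ENSDARG00000010791, 3.60 ± 0.98, edgeR adjusted p = 0.0889), dlc (3.45 ± 1.55, 0.322) and dll4 (1.23 ± 0.57, 0.329) did not pass. No call was made among the Jagged genes jag1a, jag1b, jag2a and jag2b.

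Genes that process or modify receptors and ligands gave no call among 17 (list median −0.46), with 4 at an unadjusted p under 0.05 and 1 higher and 2 lower by DESeq2. LFNG, a glycosyltransferase that modifies Notch, had 195 and 188 CPM in her-high wells of isl1a:GFP, against 34.4 and 28.7 CPM, and 156 and 198 CPM in those of chx10:GFP, against 33.6 and 16.0 CPM. The difference of 2.60 ± 0.76 did not pass (edgeR adjusted p = 0.13). Nuclear partners and regulators of Notch gave no call among 11 (list median 1.03), with 1 at an unadjusted p under 0.05 and 1 higher by DESeq2. NRARP (ENSDARG00000091419) stood at 3.07 ± 1.18 (edgeR adjusted p = 0.282) and RBPJ (ENSDARG00000052091) at 1.38 ± 0.72 (0.376).

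Of the other her and hey genes, 14 of 20 could be tested, and 2 were higher and 0 lower (list median 3.05, 5 higher by DESeq2). HES1 had 91.1 and 584 CPM in her-high wells of isl1a:GFP, against 31.3 and 7.44 CPM, and 281 and 605 CPM in those of chx10:GFP, against 0.390 and 11.9 CPM (edgeR adjusted p = 0.00252). The her2 gene was called with almost no reads outside her-high wells, at 0.988 and 49.4 CPM in her-high wells of isl1a:GFP, against 0 and 0.00717 CPM, and 0 and 167 CPM in those of chx10:GFP, against 0 and 0.00865 CPM. On chx10:GFP plate 1 it had no read in either group, and its call was lost without isl1a:GFP plate 2 or chx10:GFP plate 2. HES4 (3.44 ± 1.48, edgeR adjusted p = 0.313), HES6 (ENSDARG00000019335, 1.46 ± 0.59, 0.300) and her8a (6.93 ± 1.93, 0.101) did not pass. Of the 5 Id genes, which encode inhibitors of proneural factors, 1 was higher and 0 lower (list median −0.30). This was ID1, with 18.96 and 35.3 CPM in her-high wells of isl1a:GFP, against 4.28 and 2.90 CPM, and 993 and 364 CPM in those of chx10:GFP, against 3.90 and 2.43 CPM, and its call was lost without either chx10:GFP plate. Without the GFAP wells, with all plates kept, its difference stood at −0.57 ± 2.48.

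**Figure D5:**
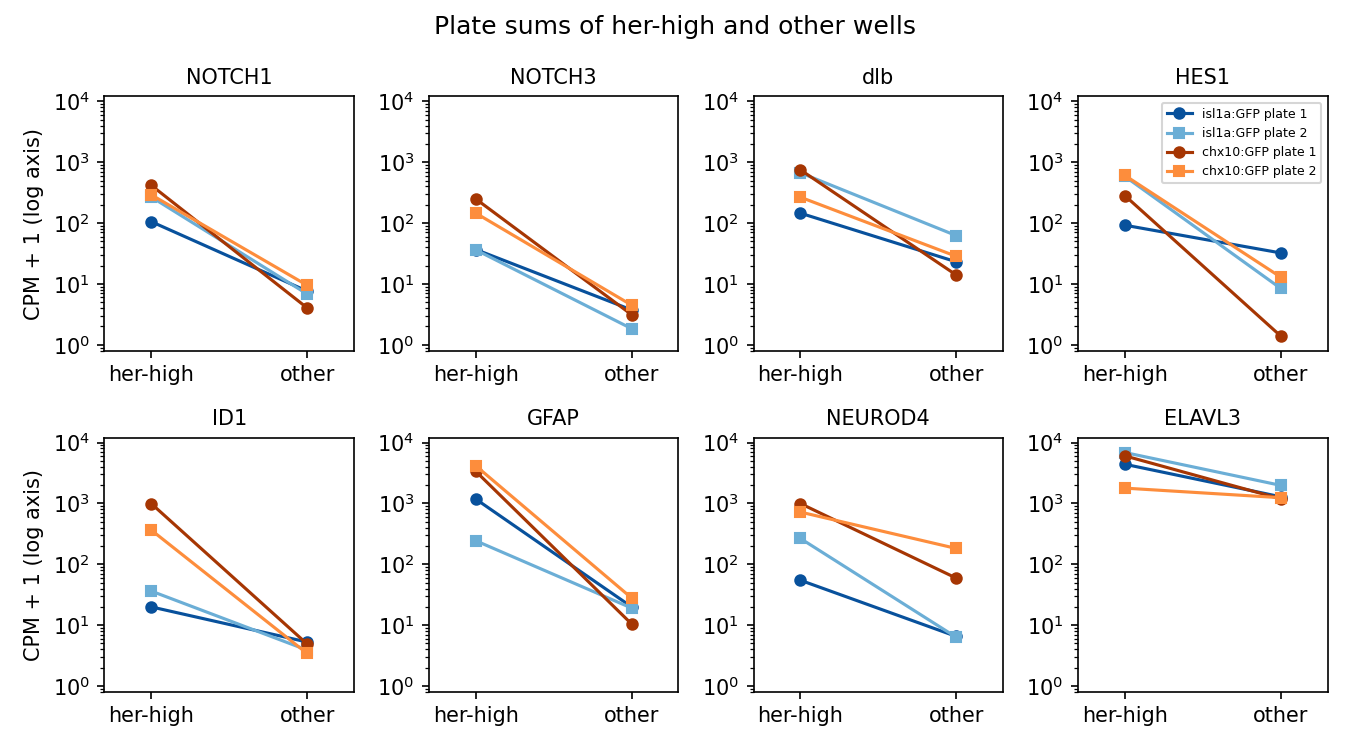
CPM + 1 (log axis) of NOTCH1 (ENSDARG00000103554), NOTCH3, dlb, HES1, ID1, GFAP, NEUROD4 and ELAVL3 in the summed her-high wells (left in each panel) and the summed other wells (right) of each plate, with a line per plate. Every line falls from left to right, NOTCH1 standing at 104 to 416 CPM in her-high wells and at 3.04 to 8.50 CPM in other wells.

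Of the proneural genes, 10 of 12 could be tested, with 1 higher and 0 lower (list median −0.09). NEUROD4 had 53.7 and 265 CPM in her-high wells of isl1a:GFP, against 5.54 and 5.34 CPM, and 996 and 721 CPM in those of chx10:GFP, against 58.3 and 181 CPM (log2 3.57 ± 0.63, edgeR adjusted p = 0.00224). NEUROD1 did not pass, at 0.28 ± 0.43 (edgeR adjusted p = 0.801). Among the 19 of 21 radial glia markers tested, 5 were higher and 0 lower (list median 1.97, 8 higher by DESeq2). Among 14 panneuronal markers, 1 was higher and 6 lower (list median −2.46), against 0 higher and 3 lower by DESeq2. The one that was higher was ELAVL3, an early and lasting gene of neurons, with 4401 and 6862 CPM in her-high wells of isl1a:GFP, against 1285 and 1980 CPM, and 6048 and 1784 CPM in those of chx10:GFP, against 1189 and 1241 CPM (log2 1.46, edgeR adjusted p = 0.000467). Without chx10:GFP plate 1 it no longer passed, nor did it in DESeq2 (adjusted p = 0.197). Those lower were both SNAP25 rows, both STMN2 rows, ELAVL4 (−1.38) and the neurofilament gene nefma (−3.36). The summed panneuronal markers stood at 7429, 10194, 7366 and 6085 CPM in her-high wells of the plates in the order above, against 11512, 11883, 14351 and 12350 CPM in the other wells.

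Several neuronal genes were among those that were lower. Among the 10 largest that were lower on every plate were adissp (−8.86), si:dkey-183i3.9 (−8.17), RGS7BP (−8.14), the neurofilament gene INA (−7.99), the tachykinin gene tac1 (−7.42), ldhbb (−6.63), the actin-bundling gene FSCN1 (−6.37), the calcium-binding gene CALB2 (−6.03) and the synaptic adhesion gene nlgn4xa (−5.86). CALB2 had 21.3 and 0.268 CPM in her-high wells of isl1a:GFP, against 231 and 184 CPM, and 11.4 and 8.66 CPM in those of chx10:GFP, against 557 and 455 CPM. Values at or near 0 in her-high wells make the sizes of these fitted differences uncertain. The her-high sums held 5062520 and 22427368 counts in isl1a:GFP, against 99805032 and 139546864 counts in the other sums. In chx10:GFP they held 1314741 counts from 6 wells and 3579204 from 10, against 94813382 and 115627631 counts. A gene read in a minority of wells can be missed in so few. The part of this in the lower calls was not tested. Of 10 MN markers, 2 were lower (CHAT −3.23 and PRPH −4.09), and of 8 V2a IN markers 1 was lower (SHOX2 −7.37), with none higher in either list. DESeq2 called 2 of the MN markers lower, and 2 of the V2a IN markers lower and 1 higher.

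Markers of other cells gave few calls. The lists for neurons that contact the cerebrospinal fluid (0 of 7, 2 at an unadjusted p under 0.05, 0 by DESeq2), serotonergic neurons (0 of 5, 3 unadjusted, 0 by DESeq2) and proliferation (0 of 14, 0 unadjusted, 1 by DESeq2) had no edgeR call. Nor had those for oligodendrocytes (0 of 9, 2 unadjusted, 2 by DESeq2), microglia and macrophages (0 of 11, 4 unadjusted, 4 by DESeq2) and vascular cells (0 of 8, 1 unadjusted, 1 by DESeq2). Summed microglia and macrophage markers had 18.2, 30.7, 338 and 5.87 CPM in her-high wells, against 492, 86.1, 180 and 339 CPM in the other wells, and 7 to 11 of the 12 genes were at 0 in her-high wells. The vascular list stood at 21.9, 21.98, 103.4 and 61.5 CPM in her-high wells, against 20.0, 10.2, 10.9 and 21.1 CPM. The list for neurons that contact the cerebrospinal fluid had 49822 and 19937 CPM in her-high wells of isl1a:GFP, against 15237 and 18106 CPM. In chx10:GFP it had only 9.13 and 37.7 CPM, against 6.31 and 9.23 CPM, so the test over 4 plates says little of it. PKD2L1 wells were 19 of the 62 her-high wells of isl1a:GFP. Of 20 early response genes, which respond to dissociation, 1 was higher (SOCS3) and 0 lower, with 5 at an unadjusted p under 0.05 and 1 higher by DESeq2. Their sum was 14950 and 13232 CPM in her-high wells of isl1a:GFP, against 13533 and 13226 CPM in the other wells. In chx10:GFP it was 21308 and 10524 CPM in her-high wells, against 8890 and 5865 CPM. The part of these cell types or of dissociation in the results was not tested.

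Whether the her-high difference itself differed between the lines was tested with an interaction term in edgeR (n = 2 plates per line). The log2 difference of her-high over other wells was more positive in isl1a:GFP than in chx10:GFP for 41 genes (0.175%) and more negative for 46 (0.197%) of 23391, against 88 and 208 in DESeq2. The median interaction over all genes tested was 0.65 in edgeR and of opposite sign in DESeq2, at −0.50. In edgeR it was 0.41 over the 3974 genes with at least 50 CPM. Each interaction is to be read against this median. None of the Notch receptor, ligand, processing, nuclear, other her and hey, Id or proneural genes was among the edgeR calls. Among the 3 radial glia markers that were, GFAP had an interaction of −2.95, so that its difference was larger in chx10:GFP. GFAP wells were 5 of the 62 her-high wells summed in isl1a:GFP and 6 of the 16 in chx10:GFP. The part of this mix of wells in the interactions was not tested. DESeq2 gave an adjusted p under 0.05 for 0 of the 12 called genes that are given by name in the closing section. Without the PKD2L1 wells, which only the isl1a:GFP plates hold, 21 genes were called and 17 of the 87 remained. Without the GFAP wells, with all plates kept, 26 were called, 11 of the 87 remained, and of the 12 only urp1 still passed.

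Between the lines as wholes, isl1a:GFP wells against chx10:GFP wells, 500 genes (2.09%) were higher and 228 (0.952%) lower of 23956 tested with edgeR over plate sums (n = 2 plates each). The 7 her genes were not tested, since their differences between wells were known when they were chosen. Few Notch pathway genes passed. None of the 4 receptors did (0 at an unadjusted p under 0.05, 0 by DESeq2), nor of the 9 ligands (3 unadjusted, 2 higher by DESeq2), nor of the 17 processing genes (4 unadjusted, 1 higher and 2 lower by DESeq2), nor of the 16 other her and hey genes tested (1 unadjusted, 1 by DESeq2). List medians were 0.25, 1.48, 0.29 and 0.35, against a median of 0.02 over all genes tested. Of the 11 nuclear genes, 1 was higher and 0 lower (3 unadjusted, 3 higher by DESeq2). This was TLE3 (ENSDARG00000002787), a co-repressor that her proteins recruit, with 103.02 and 101 CPM in isl1a:GFP, against 35.2 and 20.5 CPM in chx10:GFP (log2 1.91 ± 0.34, edgeR adjusted p = 0.0414). The ligand gene dlc had 11.9 and 68.0 CPM in isl1a:GFP, against 3.44 and 4.19 CPM in chx10:GFP, and did not pass (edgeR adjusted p = 0.0957). Of the 10 proneural genes tested, 3 were higher and 0 lower (6 unadjusted, 4 higher and 2 lower by DESeq2), and 5 had a positive difference. Those higher in isl1a:GFP were both INSM1 rows (2.83 and 3.20) and ascl1a (6.67), and ascl1a had only 6.42 and 6.18 CPM there, against 0.0211 and 0.101 CPM in chx10:GFP. Of the 20 early response genes, 8 were higher and 0 lower in isl1a:GFP (16 unadjusted, 12 higher and 2 lower by DESeq2). The part of dissociation in the differences between the lines was not tested.

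Across single wells, the gene most like the summed her level was NOTCH1 (ENSDARG00000103554), with a mean Pearson's r of 0.46 over the 4 plates on log2(CPM + 1) (0.29 and 0.64 in isl1a:GFP, 0.44 and 0.46 in chx10:GFP), out of 13663 genes. The next were CDK6 (0.37), EBF2 (0.37), S100B (0.36), RFX4 (0.35), GJA1 (0.35), FABP7 (0.34) and SOX5 (0.33). The list of 15 most alike also held si:ch211-251b21.1, ZFP36L1, GFAP, NEUROD4, ZFP36L2, SALL1 and STARD13. NEUROD4 followed the her level on isl1a:GFP plate 2 (0.63) more than on the chx10:GFP plates (0.13 and 0.11). The wells of a plate share their library preparation and depth, and these values describe the same wells as the comparison above.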

How the data were processed

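The deposited tables hold the authors' raw read counts per gene and well, made from uniquely mapped Smart-seq2 reads (STAR 2.5.3a, GRCz11, per the submitters' processing notes) and without normalization. The counting program is not given in the sources used here. Spike-ins (3.17% of counts) and the GFP reporter (0.517%) were left out of totals. Symbols, found for 29200 of 32519 genes, came from a name table of another assembly, in which paired copies share a human-style symbol and are given with their identifier.

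The 7 genes, the gene lists (201 of 206 symbols matched) and the tests were chosen with earlier results of these data known. Counts were summed per plate and group of wells and tested with edgeR 4.0.16 (TMM, filterByExpr, quasi-likelihood, Benjamini-Hochberg) in R 4.3.3, tested on simulated data first, with DESeq2 1.42.0 as an alternative. Named genes were the 10 largest called differences in each direction with the same sign on every plate and at least 50 CPM in the higher group, beside the lists, and a few results are not reported here. CPM, correlations and intervals used numpy 2.4.6, scipy 1.17.1 and pandas 2.3.3. Plates are separate pools. Between the lines, p-values measure the spread between 2 plates per line. Between her-high and other wells, with the plate as a block, they measure the spread of the within-plate difference over 4 plates. For the interaction they compare that difference between the lines, with 2 plates per line. Limits on wells followed the study's methods, but the set of wells is not the same. Here 622 isl1a:GFP and 625 chx10:GFP wells passed, more in each line than the study reported, and the cause was not tested. No wells held identical counts.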

Additional observations from a re-analysis of the deposited data

Results flagged for a closer look

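In the edgeR test of the interaction, 87 genes had a her-high difference that differed between isl1a:GFP and chx10:GFP, and a negative value means that the log2 difference of her-high over other wells was more negative, or less positive, in isl1a:GFP. The median interaction over all genes tested was 0.65. Of the genes named by rule or list, those called included RFX4 (−5.94), SOCS3 (ENSDARG00000025428, −5.68), TPH2 (−4.84), ZFP36L1 (ENSDARG00000021443, −4.77), si:ch211-251b21.1 (−4.46), GLUL (ENSDARG00000099776, −4.27), urp1 (−3.93), GFAP (−2.95), SLC1A2 (ENSDARG00000102453, −2.80), stm (−2.63), STMN2 (ENSDARG00000033234, 3.81) and ISL1 (10.39). ISL1, urp1 and TPH2 were near 0 in one of the lines, so that their fitted values depend on the handling of small counts. RFX4 had 465 and 186 CPM in her-high wells of isl1a:GFP, against 119 and 129 CPM in the other wells, and 483 and 279 CPM in those of chx10:GFP, against 0.464 and 11.8 CPM. The other wells of isl1a:GFP include 134 PKD2L1 wells, which often hold RFX4 and which the chx10:GFP plates lack, and their part in this difference was not tested. STMN2, a gene of growing and mature neurons, had 371 and 548 CPM in her-high wells of isl1a:GFP, against 856 and 1347 CPM, and 4.56 and 216 CPM in those of chx10:GFP, against 1059 and 1197 CPM.

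Wells outside the limits on genes and spike-ins were not part of any comparison, and 9 of these 289 wells held at least 100 CPM of the 7 genes, 2 and 1 in isl1a:GFP and 3 and 3 in chx10:GFP. The highest had 10982 CPM, on chx10:GFP plate 2.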

How the results depend on the processing

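Between the lines, 728 genes were called, against 3190 with DESeq2, 1217 with no filter on low counts and 423 to 1096 when 1 plate was left out (1096 without isl1a:GFP plate 1, 423 without chx10:GFP plate 1 and 445 without chx10:GFP plate 2). Plate numbers are only names, and deviations of same-numbered plates were weakly related (r = 0.12 over 16798 genes, 2 pairs). With the number as a replicate block, 1154 genes were called. Between her-high and other wells, 172 genes were called, against 2107 with DESeq2, 312 with no filter and 79 to 310 when 1 plate was left out (310 without isl1a:GFP plate 1, 79 without chx10:GFP plate 1, 93 without chx10:GFP plate 2). Only 10 were called without the plate as a block. Of the 172 calls, 115 were shared with DESeq2. Alternatives chosen after seeing the data gave 457 without PKD2L1 wells, 75 without wells under 100000 counts and, with plates of at least 3 her-high wells kept, 32 without wells under 100000 counts. With the usual minimum of 5 her-high wells, chx10:GFP plate 1 dropped out of the fits without GFAP wells, without wells under 100000 counts, with at least 3000 genes, with thinned wells and at 500 CPM, so that these changed the plates as well as the wells. The interaction gave 87, against 296 with DESeq2, 48 with her-high at 20 CPM, 21 without PKD2L1 wells and 26 without GFAP wells with all plates kept. At limits of 20 and 500 CPM, her-high shares were 13.9% and 1.93% on isl1a:GFP plate 1 and 19.6% and 8.82% on isl1a:GFP plate 2. At 20 CPM they were 5.33% and 6.46% on the chx10:GFP plates. Without the GFAP wells and chx10:GFP plate 1, NOTCH3 (−3.93) and ZFP36L1 (ENSDARG00000021443, −0.046) changed sign. Without the GFAP wells but with all plates kept, NOTCH3 (−0.26), this ZFP36L1 (−0.53), CEBPD (−0.84) and ID1 (−0.57) did, as did the interactions of GLUL (ENSDARG00000099776, 4.69), stm (1.21), SLC1A2 (ENSDARG00000102453, 1.66), si:ch211-251b21.1 (3.08) and ZFP36L1 (3.02). Over single genes, 439 values under the alternatives kept their direction and side of the threshold, 173 no longer passed and 11 reversed. Of the 19 genes named for the size of their difference, 19 passed in DESeq2, 10 without GFAP wells and all plates kept, 13 without chx10:GFP plate 1 and 14 without chx10:GFP plate 2. Of the 15 most alike genes, 12 and 13 were shared with rank correlations and with log2(CPM + 10). The cause of these changes was not tested. The limit on mitochondrial reads removed 0 wells, and a comparison within CHAT or SLC18A3 wells of isl1a:GFP was not run, since only 1 plate held 5 such her-high wells.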
